A study of Homo sapiens with 12 samples.

Results

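The mitochondrially encoded RNAs are the 13 mRNAs, 2 rRNAs and 22 tRNAs that the human mitochondrial genome encodes, and they were taken as every row of the expression tables whose gene symbol starts with MT-. All 37 were found, among 62656 genes in all. RNA was sequenced in 12 libraries, 3 for each of 4 groups, from the established human colorectal cancer lines HCT116 and LoVo. The groups are HCT116 cells with overexpression (OE) of the long non-coding RNA SLERT, HCT116 control cells, LoVo cells labelled as having a SLERT knockdown (KD), and LoVo control cells. The column headings in the tables read Vector for what was taken as the HCT116 control, Sh for the LoVo KD and ShNC for the LoVo control. The stated aim of the series is the role of SLERT in liver metastasis of rectal cancer. The labels do not say whether libraries within a group are separate cultures, and all p-values rest on the spread between them, which may be technical.

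Mitochondrial DNA is a circle that is copied into RNA from both strands by the polymerase POLRMT, giving long transcripts that hold many genes each. tRNAs lie between most of the rRNAs and mRNAs, and cutting on both sides of each tRNA sets the neighbouring RNAs free. The 12S rRNA (MT-RNR1) and the 16S rRNA (MT-RNR2) build the small and the large subunit of the mitochondrial ribosome, and every mRNA codes for a subunit of respiratory complex I, III or IV or of the ATP synthase. In the intestinal epithelium, as elsewhere, these complexes make most of the ATP that comes from respiration. SLERT is made from introns of TBRG4, also known as FASTKD4, a nuclear gene whose protein acts in mitochondria on the stability of mitochondrial mRNAs.

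The stretch that joins both rRNAs is shown first because the results turn on them. It is given on the plus strand of GRCh38, with the last 40 bases of MT-RNR1 (chrMT:1562-1601), the valine tRNA MT-TV (chrMT:1602-1670) and the first 40 bases of MT-RNR2 (chrMT:1671-1710). No base is in capitals, and the 3 stretches follow each other with no base between them.
MT-RNR1 end: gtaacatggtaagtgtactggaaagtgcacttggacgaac
MT-TV: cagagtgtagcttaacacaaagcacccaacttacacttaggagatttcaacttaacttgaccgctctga
MT-RNR2 start: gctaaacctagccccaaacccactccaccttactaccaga

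The ends of 6 of the 13 mRNAs are shown because their annotated genes lack a whole stop codon, which the added poly(A) tail completes. Each line holds the last 24 bases of the gene on the plus strand of chrMT (GRCh38), and capitals mark the bases left over after the last whole codon.
MT-ND1: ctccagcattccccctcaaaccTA
MT-ND2: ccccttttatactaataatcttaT
MT-CO3: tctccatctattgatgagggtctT
MT-ND3: aaaaaggattagactgaaccgaaT
MT-ND4: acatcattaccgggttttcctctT
MT-CYB: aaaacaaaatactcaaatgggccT

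MT-ND6 is the exception among the mRNAs in strand and composition. It is the only mRNA encoded on the minus strand (chrMT:14149-14673), and its sense sequence holds 35.6% G, against 6.28 to 16.2% in the other 12 mRNAs of GENCODE v29.

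Total counts ran from 14.46 to 17.23 M per library. SLERT has no row of its own, so the snoRNA SNORA5C, which forms one end of it, was used to check the labels. SNORA5C had 551, 661 and 714 counts in HCT116 OE, against 4, 4 and 8 in the HCT116 control, and 11, 14 and 12 counts in LoVo KD, against 9, 9 and 19 in the LoVo control. No fall of SNORA5C was thus seen in the LoVo libraries labelled KD. At 9 to 19 counts per LoVo library a fall could be missed, and SNORA5C reads need not come from SLERT. SNORA5A, another snoRNA of the locus, had 39, 46 and 57 counts in HCT116 OE, against 0, 0 and 0 in the HCT116 control. It had 1, 8 and 1 counts in LoVo KD, against 3, 7 and 2 in the LoVo control. Whether SLERT fell in LoVo KD was not settled, and the directions below hold for those libraries by their label. Of 12 markers of colorectal epithelium, 11 had any count in HCT116, with CDX1 at 0, and 12 in LoVo. Only 6 in HCT116 OE and 7 in the HCT116 control had a mean over 1 CPM (counts per library, scaled to a common total), against 12 in each LoVo group. The summed level of the 12 was 4561 to 4859 CPM in HCT116 OE, against 4513 to 4624 in the HCT116 control. It was 7032 to 7583 CPM in LoVo KD, against 8255 to 8734 in the LoVo control. That lower sum in LoVo KD is not a shared fall, since 6 of the 12 were called lower, KRT20 with the lowest log2 fold change (-1.08), and 4 higher, CDH17 with the highest (0.78). The part of these differences in the results below was not tested. The summed level of 5 leukocyte markers was at most 3.28 CPM in any library, and that of 5 markers of fibroblasts and endothelium was 70.4 to 76.1 CPM in HCT116 OE, against 79.0 to 85.4 in the HCT116 control, and at most 3.28 CPM in LoVo. An extraction protocol in the labels speaks of retinas, but 7 retina markers summed to at most 13.6 CPM.

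Per base of transcript, the mRNAs of cytochrome c oxidase, complex IV, stood at the top in every group. Levels are in deposited FPKM (fragments per kilobase of transcript, scaled to library size), as mean ± SD over 3 libraries. Each count is divided by annotated gene length, 68 bases for MT-TP, 207 for MT-ATP8 and 297 for MT-ND4L, with no allowance for fragment length. The levels and ranks of the shortest genes are thus uncertain. MT-CO2 had 12044 ± 502 FPKM in HCT116 OE, 12326 ± 567 in the HCT116 control, 8728 ± 535 in LoVo KD and 7440.1 ± 505 in the LoVo control. MT-CO1 had 10631 ± 318 FPKM in HCT116 OE, 11734 ± 687 in the HCT116 control, 11878 ± 213 in LoVo KD and 10455 ± 238 in the LoVo control. In HCT116 the ranges of MT-CO2 and its next neighbour in the order overlapped, whereas in both LoVo groups MT-CO1 was first and its libraries did not overlap those of MT-CO2.

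MT-CO3 was also among the top 3 in every group, and MT-ND4, a core subunit of complex I, came next. Below them the order in the HCT116 control ran MT-ATP6, MT-ND5, MT-RNR2, MT-CYB, MT-ND1, MT-ND2, MT-ND3, MT-TP, MT-ND6, MT-ND4L and MT-RNR1. Neighbours overlapped from MT-ND5 to MT-CYB, between MT-ND1 and MT-ND2, and from MT-ND3 to MT-RNR1. In the LoVo control it ran MT-RNR2, MT-CYB, MT-ATP6, MT-ND1, MT-ND5, MT-ND2, MT-TP, MT-ND3, MT-RNR1, MT-ND4L and MT-ND6, with overlap from MT-ATP6 to MT-ND5, between MT-ND3 and MT-RNR1 and between MT-ND4L and MT-ND6.

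MT-ATP8, a small subunit of the ATP synthase, was last in every group. Leaving it out, the highest mRNA stood 8.87-fold above the lowest in HCT116 OE and 9.50-fold in the HCT116 control, and 17.5-fold in LoVo KD and 17.3-fold in the LoVo control. MT-RNR2 stood above MT-RNR1 per length in every group, by 2.81-fold in HCT116 OE and 3.38-fold in the HCT116 control, and by 5.73-fold in LoVo KD and 4.22-fold in the LoVo control. Both rRNAs are cut from one transcript, next to each other.

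**Figure D1:**
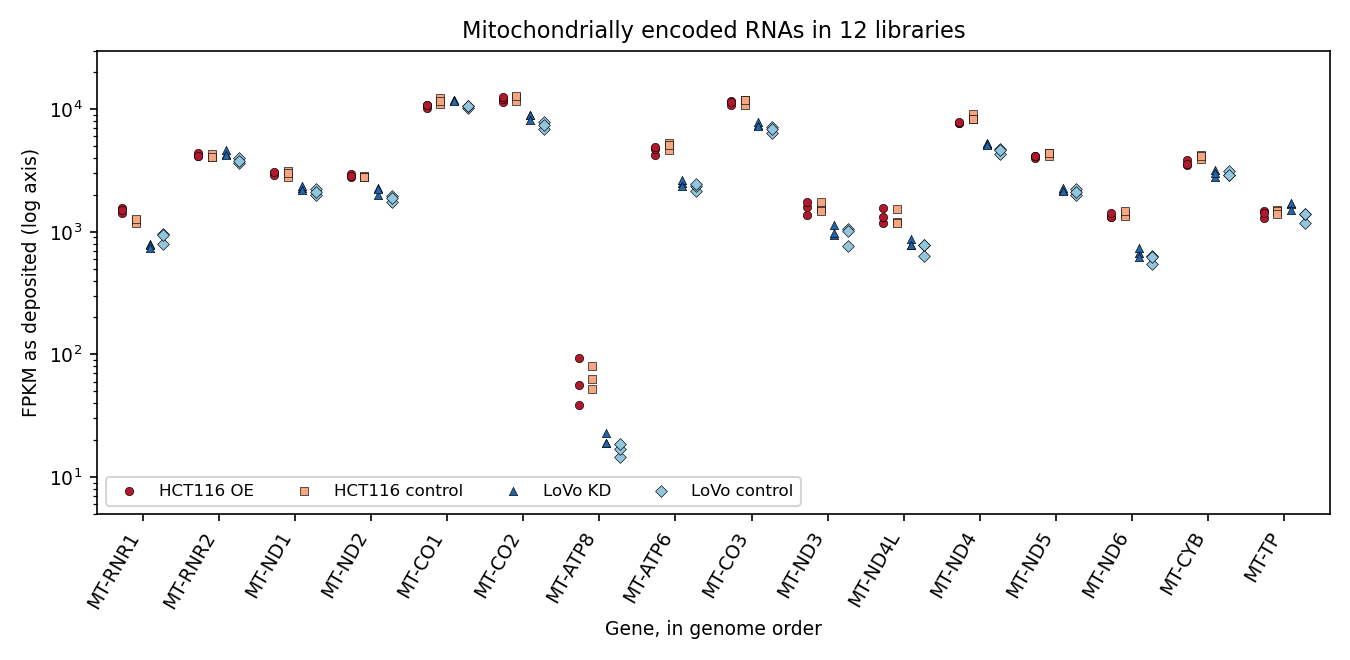
Deposited FPKM (log axis) of the 13 mRNAs, 2 rRNAs and MT-TP in genome order, 1 point per library, 3 libraries in each of the 4 groups. MT-ATP8 lies below every other gene in every library, and most mRNAs sit lower in the LoVo groups than in the HCT116 groups.

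The 37 RNAs together took 7.23%, 7.60% and 7.57% of all counts in HCT116 OE, against 8.12%, 7.53% and 7.91% in the HCT116 control. These ranges overlap. In LoVo KD they took 5.93%, 6.15% and 5.79% of all counts, against 5.09%, 5.53% and 5.38% in the LoVo control, and every KD library stood above every control library. The means were 7.47 ± 0.206% in HCT116 OE and 7.85 ± 0.300% in the HCT116 control (SD, n = 3 each; exact two-sided permutation p = 0.3), and 5.96 ± 0.181% in LoVo KD and 5.33 ± 0.226% in the LoVo control (exact two-sided permutation p = 0.1, the smallest that 3 against 3 allows). Adjusted over the 8 shares tested, these p-values were 0.4 and 0.267. Counting error is small beside the spread, with a 95% Wilson interval of 7.22 to 7.25% in the first HCT116 OE library. Such intervals cover counting error alone, because without molecular identifiers reads need not stand for separate molecules. In bulk RNA, less of these RNAs per cell, fewer cells that hold them and more of all other RNA cannot be told apart.

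Most of the share is mRNA. The 13 mRNAs took 6.66 ± 0.187% of all counts in HCT116 OE and 7.08 ± 0.315% in the HCT116 control, and 5.19 ± 0.145% in LoVo KD and 4.65 ± 0.207% in the LoVo control. Both rRNAs took 0.803 ± 0.0288% in HCT116 OE and 0.767 ± 0.0154% in the HCT116 control, and 0.758 ± 0.0357% in LoVo KD and 0.680 ± 0.0181% in the LoVo control (SD, n = 3 in each group). The RNA kit named in the labels takes polyadenylated RNA with oligo-dT beads, as background, and how far tail length bears on the rRNA shares was not tested.

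**Figure D2:**
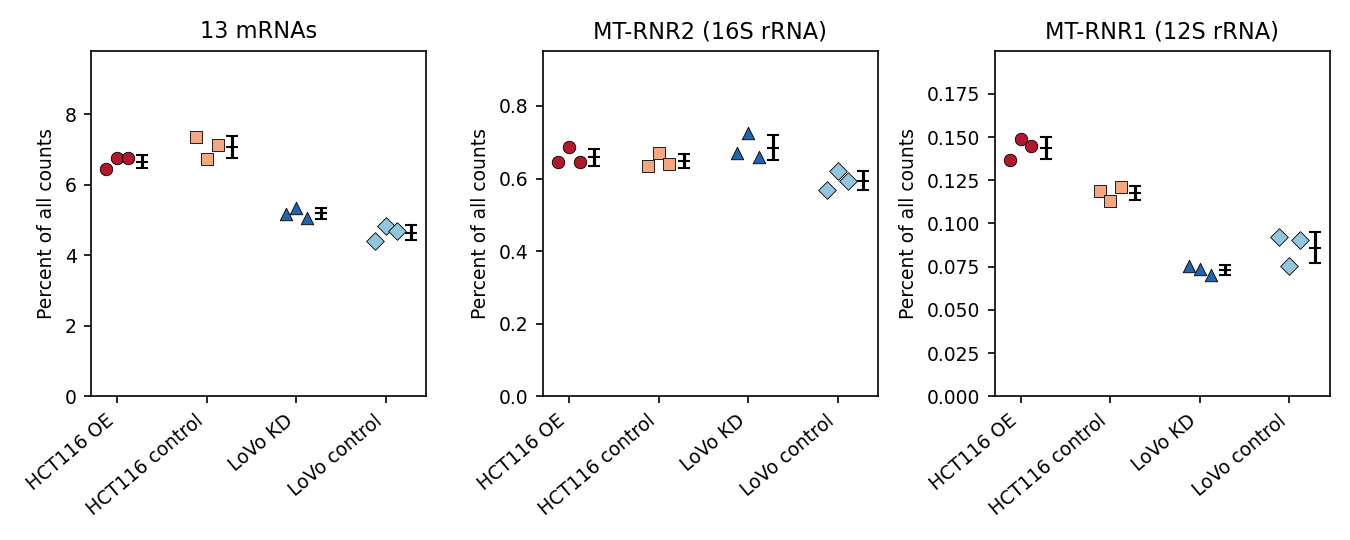
Percent of all counts held by the 13 mRNAs, MT-RNR2 and MT-RNR1 in each library (points), with the group mean ± SD beside them (bars, n = 3). MT-RNR1 is higher in every HCT116 OE library than in any HCT116 control, and in LoVo the KD libraries are lower than every control, narrowly so for control 2, whose normalised CPM lies within the KD range.

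In HCT116, 16 of the 37 RNAs passed the filter on low counts, namely the 13 mRNAs, both rRNAs and MT-TP, and 1 of them was called at an adjusted p under 0.05 by edgeR's quasi-likelihood test, beside 0.914% of the 15980 genes tested (0.507% higher and 0.407% lower). It was MT-RNR1, the 12S rRNA, which had 1373, 1499 and 1464 normalised CPM in OE, against 1182, 1116 and 1206 in the control. Every OE library stood above every control library. MT-RNR1 rose 1.24-fold (log2 fold change 0.31, SE 0.050, 95% interval 0.20 to 0.41, edgeR adjusted p = 0.00185) and was rank 13 of all genes by p. The log2 fold change was 0.28 to 0.34 when any 1 library was left out, and the call held each time. On the scales log2(FPKM + 1) and log2(FPKM + 0.1), tested with limma, it was not called, and the highest adjusted p was 0.242.

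MT-RNR2, the 16S rRNA, lies just downstream of MT-RNR1 and did not pass the test. It had 6485, 6901 and 6536 CPM in OE, against 6321, 6621 and 6379 in the control, with overlapping ranges (log2 fold change 0.04, 95% interval -0.05 to 0.13, edgeR adjusted p = 0.703).

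Of the 13 mRNAs, 0 were called in HCT116 by edgeR, by DESeq2 or by limma voom. At an unadjusted edgeR p under 0.05 there were 3, MT-CYB, MT-CO1 and MT-ND4, beside 14.4% of all genes tested. MT-CYB, cytochrome b of complex III, had 4039, 4459.7 and 4094 CPM in OE, against 4759, 4383 and 4728 in the control (log2 fold change -0.14, SE 0.049, edgeR adjusted p = 0.159). Its groups overlapped through a single pair, the highest OE and the lowest control library. MT-CO1, the catalytic subunit of complex IV, had 15912, 16849.8 and 16795 CPM in OE, against 19060.3, 16837 and 17983 in the control (log2 fold change -0.12, edgeR adjusted p = 0.195), and MT-ND4 had 10791, 10689.8 and 11012 CPM in OE, against 12412, 11285 and 11410.0 in the control (log2 fold change -0.11, edgeR adjusted p = 0.224). The MT-ND4 groups did not overlap, and neither did those of MT-ND2 (log2 fold change 0.05, edgeR adjusted p = 0.689). The log2 fold changes of the 13 mRNAs ran from -0.14 to 0.09 with a median of -0.02, beside a median of -0.002 over all genes tested.

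In LoVo the same 16 RNAs were tested and 9 were called, beside 26.3% of the 16253 genes tested. Of these, 8 were higher in the libraries labelled KD, beside 12.6% of all genes, and 1 was lower, beside 13.7%. The rises were small, between 1.14-fold and 1.26-fold. The median log2 fold change of the 16 was 0.20, and that of all genes tested 0.001.

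All 3 mRNAs of complex IV rose. MT-CO1 had 18789.9, 18696 and 18072 CPM in KD, against 15464, 16128 and 16246 in the control (1.16-fold, log2 fold change 0.22, SE 0.041, edgeR adjusted p = 0.000465). MT-CO2, which binds cytochrome c, had 6266, 6256 and 5589 CPM in KD, against 4656, 5342 and 5102 in the control (1.20-fold, log2 fold change 0.26, SE 0.054, edgeR adjusted p = 0.00102). MT-CO3, the other core subunit, had 5975, 6202 and 5765 CPM in KD, against 4913, 5498 and 5347 in the control (1.14-fold, log2 fold change 0.19, SE 0.049, edgeR adjusted p = 0.00692). For each of these mRNAs every KD library stood above every control library. In LoVo the groups did not overlap for 9 of the 16 RNAs, among them MT-ATP8 and MT-ND4L, which were not called. The share of all genes without such overlap was not counted within either line.

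Of the 7 mRNAs of complex I, the NADH dehydrogenase, 3 rose. MT-ND2 had 2123, 2419 and 2356 CPM in KD, against 1782, 2031 and 1954 in the control (log2 fold change 0.26, edgeR adjusted p = 0.0018), and MT-ND4 had 7219, 7384 and 7095 CPM in KD, against 5822, 6459 and 6329.7 in the control (log2 fold change 0.22, edgeR adjusted p = 0.00128). Neither showed any overlap between groups. MT-ND6, the minus-strand mRNA, had 359, 393 and 329.5 CPM in KD, against 282, 332 and 326 in the control (log2 fold change 0.20, edgeR adjusted p = 0.0313), with overlap, and its call was lost without KD 2, control 1 or control 3. Its log2 fold change was 0.13 to 0.27 over the 6 libraries left out in turn. The other 4 were not called, with log2 fold changes of 0.14 for MT-ND1 (edgeR adjusted p = 0.0533), 0.14 for MT-ND3, 0.17 for MT-ND4L and 0.10 for MT-ND5.

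MT-CYB, the complex III mRNA, and both ATP synthase mRNAs were not called in LoVo. MT-CYB had 3245, 3658 and 3442 CPM in KD, against 3257, 3551 and 3317 in the control, the smallest log2 fold change of the 16 in size (0.03, 95% interval -0.08 to 0.14, edgeR adjusted p = 0.71). MT-ATP6, which forms the proton channel of the ATP synthase, had 1730.2, 1819 and 1633 CPM in KD, against 1436, 1594 and 1654 in the control (log2 fold change 0.15, edgeR adjusted p = 0.0624). The log2 fold change of MT-ATP8 was 0.31 with a wide interval of -0.11 to 0.73. Sorted by their annotated ends, 3 of the 6 mRNAs without a whole stop codon rose, and 3 of the 7 that end on a whole codon. The last annotated base of MT-ATP6, chrMT:9207, is also the first of MT-CO3, so its place among the 7 rests on the annotation. Whether the ends bear on the calls was not tested. Among those 7, MT-CO1 ends in AGA and MT-ND6 in AGG, and both were called. The rest end in TAA or TAG in the annotation, and of these only MT-CO2 was called.

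The rRNAs moved apart in LoVo. MT-RNR2 had 6807, 7319 and 6653 CPM in KD, against 5597, 6118 and 5918 in the control, with no overlap, and rose 1.18-fold (log2 fold change 0.24, SE 0.049, edgeR adjusted p = 0.000928). MT-RNR1 had 765, 746 and 707 CPM in KD, against 909.5, 747 and 899 in the control, and fell to 0.868 of the control level (log2 fold change -0.20, SE 0.064, 95% interval -0.34 to -0.07, edgeR adjusted p = 0.0214). Control 2 stood with the KD libraries and apart from both other controls. The MT-RNR1 call was lost without KD 3, control 1 or control 3, and its log2 fold change was -0.29 to -0.15 over all 6 libraries left out in turn.

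All 9 LoVo calls were lost when FPKM was tested with limma on log2(FPKM + 1) or log2(FPKM + 0.1), where the median of the 16 was 0.16. On the counts, DESeq2 called the same 9, and limma voom called them with 1 more. Of the 9 calls, 7 held whichever library was left out, those of MT-RNR2, MT-ND2, MT-CO1, MT-CO2, MT-CO3, MT-ND4 and MT-TP.

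**Figure D3:**
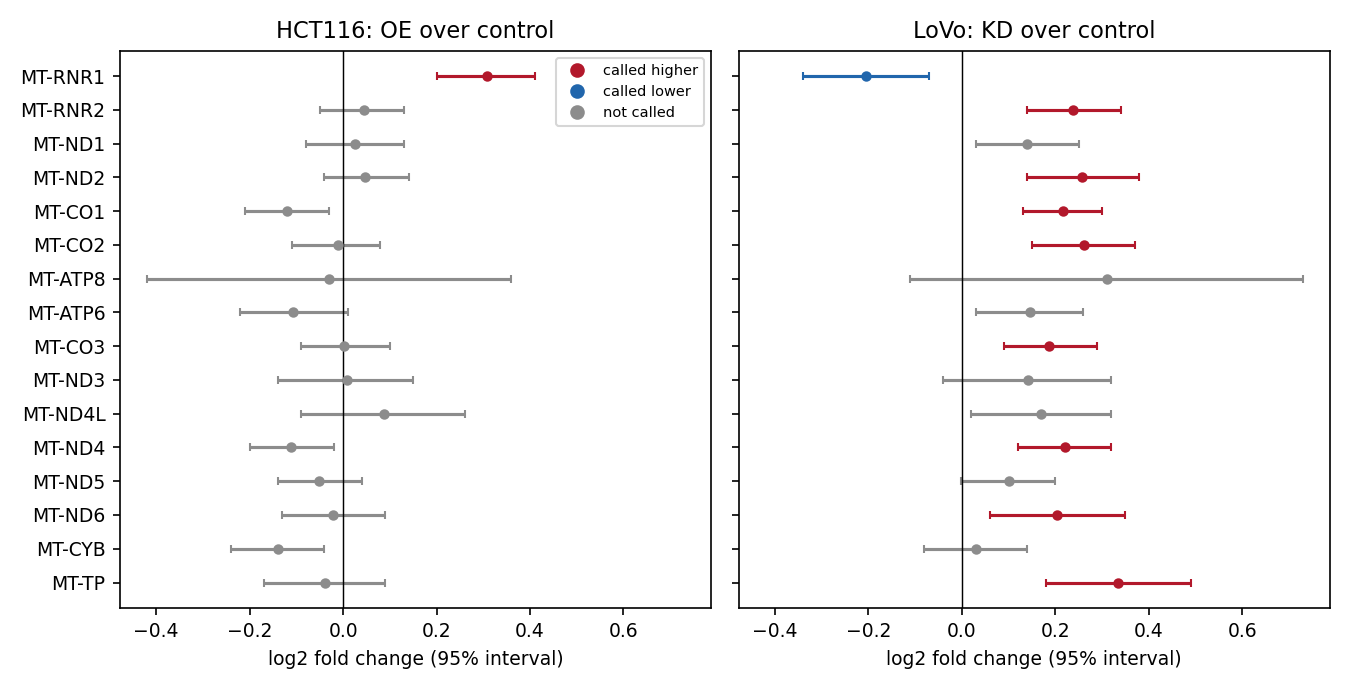
Log2 fold changes with 95% intervals from the edgeR fit of each line, OE over control in HCT116 and KD over control in LoVo, for the 16 tested RNAs in genome order. MT-RNR1 is called higher at 0.31 in HCT116 and lower at -0.20 in LoVo, and the LoVo mRNAs lie between 0.03 and 0.31.

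Set against MT-RNR2 of the same library, MT-RNR1 was higher in HCT116 OE and lower in LoVo KD than in the controls. There were 21.2, 21.7 and 22.4 MT-RNR1 counts per 100 MT-RNR2 counts in HCT116 OE, against 18.7, 16.9 and 18.9 in the HCT116 control. In LoVo KD there were 11.2, 10.2 and 10.6, against 16.3, 12.2 and 15.2 in the LoVo control. Neither line showed overlap between its groups. The ratio was 1.20-fold that of the control in OE and 0.734-fold in KD, each with an exact two-sided permutation p of 0.1, the smallest possible with 3 against 3 (0.267 adjusted over 16 ratio tests, which were chosen after the values were seen). Against the mRNAs, MT-RNR1 had 2.15 ± 0.0463 counts per 100 in HCT116 OE and 1.66 ± 0.0419 in the HCT116 control, and 1.41 ± 0.0409 in LoVo KD and 1.86 ± 0.266 in the LoVo control (SD, n = 3 in each group). In both lines this ratio separated the groups too.

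MT-ND6 against the plus-strand mRNAs gave no such split. There were 1.08 ± 0.0377 MT-ND6 counts per 100 plus-strand mRNA counts in HCT116 OE and 1.05 ± 0.0400 in the HCT116 control (SD, n = 3 each; exact two-sided permutation p = 0.5), and 0.691 ± 0.0416 in LoVo KD and 0.685 ± 0.0283 in the LoVo control (exact two-sided permutation p = 1). Reads of the 2 strands can be told apart only if the counting used strand, which is not given in the sources used here.

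**Figure D4:**
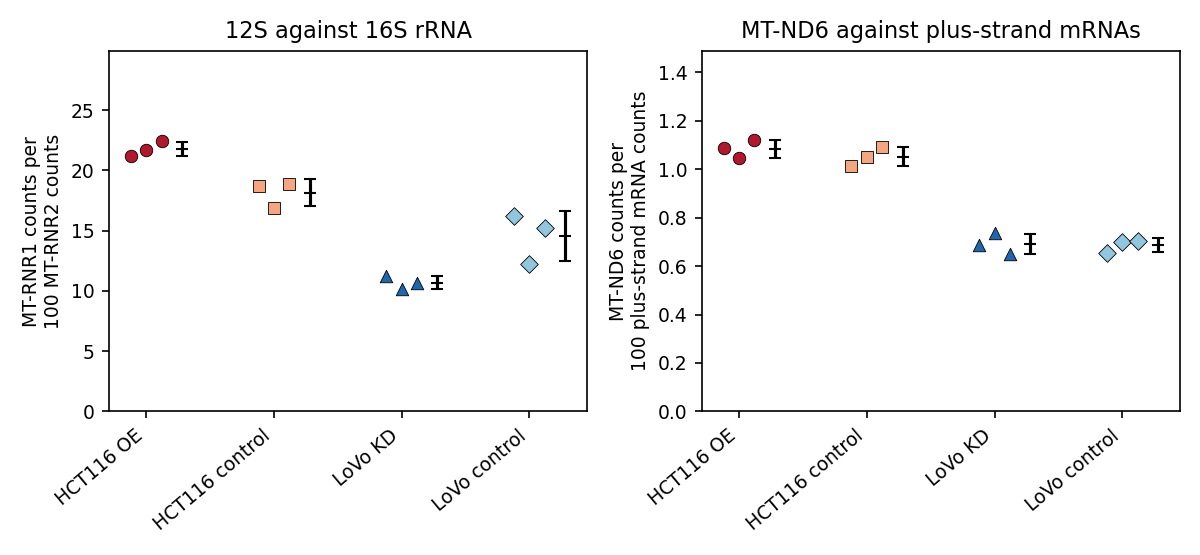
MT-RNR1 counts per 100 MT-RNR2 counts (left) and MT-ND6 counts per 100 plus-strand mRNA counts (right) in each library (points), with group mean ± SD (bars, n = 3). The left ratio averages 21.8 in HCT116 OE against 18.2 in its control and 10.7 in LoVo KD against 14.6 in its control, and the right ratio overlaps within each line.

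The difference between the OE effect in HCT116 and the KD effect in LoVo was tested in 1 fit of all 12 libraries. OE and KD are different labelled manipulations in different lines, and a fall of SLERT in the libraries labelled KD was not settled by the few SNORA5C counts. This contrast thus compares what was seen in each line and not a shared treatment. Of the 16 RNAs, 8 were called, beside 11.6% of the 18199 genes tested (6.03% positive and 5.62% negative). MT-RNR1 had the only positive value, 0.50 on the log2 scale (SE 0.084, 95% interval 0.32 to 0.67, edgeR adjusted p = 0.000211), and it was called under all 21 alternatives run. The other 7 were negative, between -0.21 for MT-RNR2 and -0.39 for MT-TP, with MT-CO1 and MT-ND4 at -0.35 each. Besides MT-RNR1, those of MT-CO1 and MT-ND4 were the calls that held whichever library was left out. The count of 8 became 3 without HCT116 OE 1 or LoVo control 1, 5 without HCT116 control 1, HCT116 control 3 or LoVo KD 2, and 1 on both FPKM scales.

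Among the 22 tRNAs, 19 had 0 counts in all 12 libraries, which allows each a share of up to 1.74e-05 to 2.07e-05% of a library's counts. MT-TF and MT-TY had 2 counts and 1 count over all libraries. Counted reads were thus found for essentially 1 tRNA, the proline tRNA MT-TP, which lies on the minus strand at chrMT:15956-16023, next to the control region. It had 1451, 1664 and 1469 counts in HCT116 OE, against 1750, 1702 and 1544 in the HCT116 control, and 1696, 1868 and 1532 in LoVo KD, against 1191, 1420 and 1380 in the LoVo control. MT-TP rose 1.26-fold in LoVo KD (log2 fold change 0.33, SE 0.075, edgeR adjusted p = 0.00209, no overlap) and was not called in HCT116 (log2 fold change -0.04, edgeR adjusted p = 0.83). The 21 other tRNAs were not tested. The sequence of MT-TP is shown beside those of 3 tRNAs with 0 or 2 counts, the threonine tRNA MT-TT (chrMT:15888-15953, its neighbour on the plus strand), MT-TF (chrMT:577-647, phenylalanine) and MT-TL1 (chrMT:3230-3304, leucine), each 5′ to 3′ on its own strand in GRCh38 and without capitals.
MT-TP: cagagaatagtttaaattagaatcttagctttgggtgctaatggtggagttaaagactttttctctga
MT-TT: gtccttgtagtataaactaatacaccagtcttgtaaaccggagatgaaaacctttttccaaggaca
MT-TF: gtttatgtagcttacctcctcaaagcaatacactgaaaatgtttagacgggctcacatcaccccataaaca
MT-TL1: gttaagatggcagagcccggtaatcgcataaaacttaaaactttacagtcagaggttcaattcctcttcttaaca
All 4 are of 66 to 75 bases, and MT-TP is neither the shortest nor the longest. Whether the MT-TP counts come from the tRNA, from a longer RNA across it or from the other strand was not tested.

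MT-ATP8 shares bases with its neighbour. The last 46 bases of MT-ATP8 (chrMT:8366-8572, plus strand, GRCh38) are also the first bases of MT-ATP6, in another reading frame, and they are in capitals in the whole gene below.
MT-ATP8: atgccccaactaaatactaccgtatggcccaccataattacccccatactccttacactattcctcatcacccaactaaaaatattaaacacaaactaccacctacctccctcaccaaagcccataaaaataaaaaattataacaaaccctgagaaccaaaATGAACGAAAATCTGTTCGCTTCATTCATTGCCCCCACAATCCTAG
MT-ATP8 had 317, 133 and 178 counts in HCT116 OE, against 186, 282 and 211 in the HCT116 control, and 70, 63 and 59 in LoVo KD, against 45, 52 and 56 in the LoVo control. Per length, MT-ATP6 stood 73.2-fold above MT-ATP8 in HCT116 OE, 77.2-fold in the HCT116 control, 124-fold in LoVo KD and 139-fold in the LoVo control. As background, both are carried on 1 mRNA. MT-ND4L and MT-ND4, the other pair that shares a transcript, overlap by 7 bases, and there MT-ND4 stood 5.74-fold above MT-ND4L in HCT116 OE, 6.60-fold in the HCT116 control, 6.45-fold in LoVo KD and 6.21-fold in the LoVo control. How reads that fall on both genes were assigned is not given in the sources used here, and its part in these ratios was not tested.

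The control cells of both lines were also compared. In the fit of all libraries, 16 of the 16 tested RNAs were higher in the HCT116 control than in the LoVo control, beside 38.7% of all genes called higher, 37.9% called lower and 76.6% called in either direction. The largest differences were those of MT-ATP8 (log2 fold change 2.07, SE 0.23), MT-ND6 (1.32, SE 0.065), MT-ATP6 (1.22, SE 0.061), MT-ND5 (1.14, SE 0.046) and MT-ND4 (1.01, SE 0.045). MT-ND6 had 759, 716 and 793 CPM in the HCT116 control, against 273, 320.5 and 315 in the LoVo control. The smallest were those of MT-RNR2 (0.23, SE 0.045), MT-TP (0.24, SE 0.071) and MT-CO1 (0.27, SE 0.043). MT-CO1 had 19754, 17464 and 18551 CPM in the HCT116 control, against 14951, 15593 and 15697 in the LoVo control, so it differed 1.21-fold where MT-ND6 differed 2.50-fold. These 3 were not called on either FPKM scale. Without LoVo control 1, MT-TP was not called, and 15 of 16 were. The groups did not overlap for 16 of the 16, beside 78.4% of all genes tested.

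**Figure D5:**
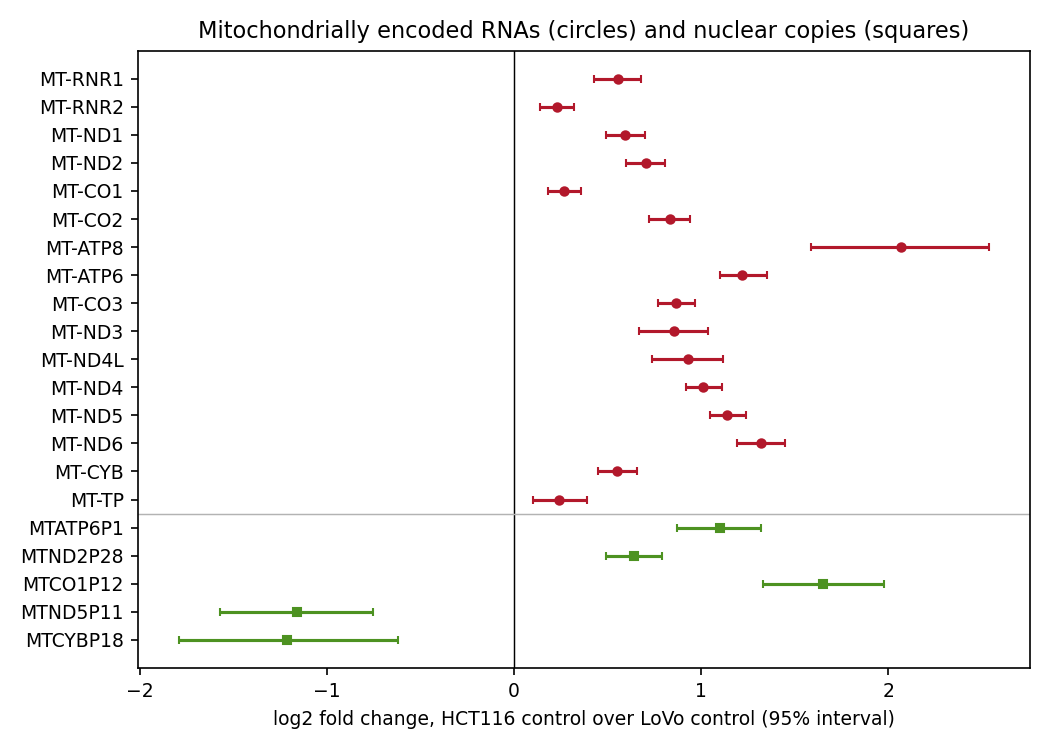
Log2 fold change of the HCT116 control over the LoVo control with 95% intervals, for the 16 mitochondrially encoded RNAs (red circles) and the 5 nuclear copies with the most counts (green squares). All circles lie above 0, from 0.23 to 2.07, and of the copies those on chromosome 1 lie above 0 and those on chromosome 5 below it.

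Nuclear copies of mitochondrial genes can share reads with them. Symbols of such copies matched 404 genes, and 107 of them had a count in some library. MTATP6P1 had 26671 counts over all libraries, MTND2P28 16223 and MTCO1P12 1567, all on chromosome 1, and MTND5P11 745 and MTCYBP18 385, both on chromosome 5. Of the 404, 9 passed the filter and were tested in HCT116 and 8 in LoVo, and 0 were called by edgeR in either, beside 0.914% and 26.3% of all genes, with 1 in each line at an unadjusted p under 0.05. Between control lines, MTATP6P1 (log2 fold change 1.10), MTND2P28 (0.64) and MTCO1P12 (1.65) were higher in the HCT116 control, and MTND5P11 (-1.16) and MTCYBP18 (-1.21) were lower.

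The copies on chromosome 1 are the closer ones, with 98.4 to 98.7% of aligned bases equal to the mitochondrial gene, beside 93.0% for MTND5P11 and 91.8% for MTCYBP18. A stretch of 60 bases of each kind is shown, in GRCh38 and 5′ to 3′ on the gene's strand, with capitals at the bases that differ. Each stretch was placed to hold a base that differs, so its identity need not be that of the whole copy. The MT-ATP6 stretch is chrMT:8635-8694 and its copy chr1:633804-633863, both on the plus strand. The MT-ND5 stretch is chrMT:12338-12397 on the plus strand and its copy chr5:134926399-134926458 on the minus strand.
MT-ATP6: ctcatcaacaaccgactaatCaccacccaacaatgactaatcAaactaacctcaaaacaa
MTATP6P1: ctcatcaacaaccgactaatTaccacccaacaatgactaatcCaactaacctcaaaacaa
MT-ND5: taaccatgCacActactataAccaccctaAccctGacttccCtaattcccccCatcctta
MTND5P11: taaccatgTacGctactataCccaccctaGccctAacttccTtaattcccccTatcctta

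Of all windows of 100 bases along a gene, the share that was found unchanged in any of 394 copies with a GENCODE v29 transcript was 27.9% for MT-CO1, 26.1% for MT-ND2, 11.9% for MT-ATP6, 11.0% for MT-ND1, 4.38% for MT-CO3 and 2.39% for MT-CO2. It was 0 for the other mRNAs and for both rRNAs. The copies together held 0.0304 ± 0.00262% of all counts in HCT116 OE and 0.0311 ± 0.00366% in the HCT116 control, and 0.0194 ± 0.000899% in LoVo KD and 0.0185 ± 0.00211% in the LoVo control (SD, n = 3 in each group), with exact two-sided permutation p of 0.9 and 0.7.

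A list of 105 nuclear genes was taken for the upkeep of mitochondrial DNA and the making, cutting, modification, stability and decay of its RNA. It also holds mitochondrial aminoacyl-tRNA synthetases and coactivators of mitochondrial gene programmes. In HCT116, 103 genes of the list were tested and 1 was called, beside 0.914% of all genes. It was TBRG4, host gene of SLERT, which had 243, 251 and 270.1 CPM in OE, against 159, 153 and 173 in the control (1.58-fold, log2 fold change 0.66, edgeR adjusted p = 5.24e-08). SNORA5C, which lies inside an intron of TBRG4, was higher in the same libraries, and the part of the overexpressed RNA in the TBRG4 counts was not tested. The count of 1 became 2 without OE 1 and 4 without control 3. The median of the list was 0.08, beside -0.002 over all genes tested. Of the 103, 82 had a positive log2 fold change and 21 a negative one. An unadjusted edgeR p under 0.05 was found for 29 of the 103, beside 14.4% of all genes tested. POLRMT (log2 fold change 0.08), the transcription factors TFAM (0.11) and TFB2M (0.10), the helicase TWNK (0.17), and LRPPRC (0.04) and SLIRP (0.19), which together bind and stabilise mitochondrial mRNAs, were not called.

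In LoVo, 104 genes of the list were tested and 17 were called, 14 higher and 3 lower, beside 12.6% and 13.7% of all genes. LRPPRC had 388, 438 and 402 CPM in KD, against 334, 340.2 and 328 in the control, with no overlap (log2 fold change 0.29, edgeR adjusted p = 0.000632). The other 5 rises with the smallest p were those of THG1L (0.48), which adds the first base of histidine tRNA, FASTKD1 (0.32), a relative of TBRG4, GRSF1 (0.24), an RNA granule protein, YRDC (0.36), a tRNA modifier, and KARS1 (0.21), the lysyl-tRNA synthetase of cytosol and mitochondria. The KARS1 call was lost without control 3 (log2 fold change 0.20, edgeR adjusted p = 0.0586).

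POLRMT, the mitochondrial RNA polymerase, fell in LoVo. It had 148, 113 and 141 CPM in KD, against 162, 154 and 164 in the control (log2 fold change -0.26, SE 0.077, edgeR adjusted p = 0.0151), with no overlap, and the call was lost without KD 2, control 1 or control 3 and on the FPKM scales. Its log2 fold change was -0.34 to -0.14 over the 6 libraries left out in turn, the smallest in size without KD 2. The others that fell were GTPBP3 (-0.23), which modifies tRNA wobble bases, and FASTK (-0.20), needed for MT-ND6 RNA, and their calls were lost without 5 and 4 of the 6 libraries. TFAM (0.03), TFB2M (0.17), TWNK (0.01), SLIRP (0.14) and TBRG4 (0.07, edgeR adjusted p = 0.413) were not called. By role, beside 26.3% of all genes, 9 of 23 tested genes of RNA tailing, stability and decay were called, 8 of them higher, 3 of 24 of RNA modification, 3 of 22 aminoacyl-tRNA synthetases, 1 of 11 of transcription, 1 of 6 coactivators, 0 of 5 of end processing and 0 of 13 of DNA replication (1 and 2 at an unadjusted edgeR p under 0.05). The list's count was 8 and 9 on the FPKM scales, 11 without KD 3, 10 without control 1 and 6 without control 3. Its median was 0.05, beside 0.001 over all genes tested.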

How the data were processed

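The 12 libraries were grouped by the labels' cell line and treatment. Counts deposited by the authors are whole numbers for 62656 genes and not normalised, as their values show. The authors' FPKM table holds 38828 genes. Each value equals the count divided by total count and by a constant per gene, within a relative deviation of 4.09e-13. That constant was derived from the FPKM values themselves. For the mitochondrial RNAs with counts it equals the annotated gene length, and for other genes this was not checked. The submitters' processing notes name HISAT2 2.1.0 and the GRCh38 build. Which counter and annotation release were used, and whether strand was, is not given in the sources used here. Mapping the vector columns to the HCT116 control is the least certain step.

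Counts were tested with edgeR 4.0.16 in R 4.3.3 (TMM, filterByExpr, quasi-likelihood F test, Benjamini-Hochberg over all genes tested, calls at an adjusted p under 0.05), per line, and over all 12 libraries for differences between lines. The procedure was also run on simulated counts with the same spread setting for all genes, which need not hold here. No result rests on that run. CPM uses TMM library sizes of the fit concerned. Per-library shares and ratios had exact permutation tests. Alternatives were RLE and upper quartile factors, library sizes without mitochondrial genes, no filter, DESeq2 1.42.0, limma 3.58.1 voom, limma on log2(FPKM + 1) and log2(FPKM + 0.1), a replicate block, all 12 libraries in 1 fit, and each library left out. Symbols, coordinates and sequences are from GENCODE v29 (GRCh38), whose transcripts held every sequence shown. Its symbols and a gene name table matched 62639 identifiers.

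Named were the 13 mRNAs, 2 rRNAs, tested tRNAs, 7 nuclear genes chosen for their role, up to 6 further called genes of the list per direction, and the 5 copies with the most counts. SNORA5C and SNORA5A were added after their values were seen. The members and lists were chosen with earlier results of these data known.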

Additional observations from a re-analysis of the deposited data

Results flagged for a closer look

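For 8 of the 16 tested RNAs, the OE effect in HCT116 and the KD effect in LoVo differed by edgeR's test of the difference itself, OE effect minus KD effect on the log2 scale. The value was 0.50 for MT-RNR1, which rose in OE (0.31, higher in 3 of 3 libraries than in any control) and fell in KD (-0.20, with overlap). It was -0.35 for MT-CO1, -0.35 for MT-ND4 and -0.29 for MT-CO2, each of which rose in KD in 3 of 3 libraries and was not called in OE. It was -0.39 for the tRNA MT-TP, -0.23 for MT-ND2 and -0.21 for MT-RNR2, with the same pattern of calls. It was -0.27 for MT-ATP6, which was called in neither line (-0.11 in OE and 0.15 in KD). These calls are not equally firm. Of 21 alternatives, 13 lost the call of MT-ND2, 12 that of MT-ATP6 and 11 that of MT-RNR2, while at most 4 lost any of the others. Since the labelled manipulation and the line both differ, they cannot be told apart in these differences. The SLERT readout SNORA5C showed no fall in the libraries labelled KD, but its LoVo counts were too few to settle whether SLERT fell.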

How the results depend on the processing

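RLE factors, upper quartile factors, library sizes without mitochondrial genes, DESeq2 and limma voom kept the number of mitochondrial RNAs called in each comparison within 1.5 times, whereas the FPKM scales did not. On log2(FPKM + 1) and on log2(FPKM + 0.1) it was 0 in HCT116, 0 in LoVo and 1 for the difference between lines, where 7 of 15980 genes were called in HCT116 on either scale and 2845 and 2866 of 16253 in LoVo, and the nuclear list had 8 and 9 calls in LoVo. The cause was not tested. The nuclear list in HCT116 had 4 calls with no filter and 6 with DESeq2. With each library left out, the counts of mitochondrial RNAs called were 1 in HCT116 each time, 7 to 10 in LoVo, 3 to 7 for the difference and 15 to 16 between control lines, and those of the nuclear list were 1 to 4 in HCT116 and 6 to 24 in LoVo. The share of counts differed by -0.545 to -0.249 percentage points in HCT116 and by 0.502 to 0.724 in LoVo, and with the 2 rRNAs only the HCT116 difference was 0.0358 points. A replicate block gave 5 mitochondrial RNAs in HCT116 (MT-RNR1 higher, MT-CO1, MT-ATP6, MT-ND4 and MT-CYB lower), 14 in LoVo and 12 for the difference, while the genes called in all became 1322 in HCT116, 5588 in LoVo and 3253 for the difference, against 146, 4279 and 2119 without it, and 19 and 30 genes of the nuclear list in HCT116 and LoVo. Numbers shared by libraries are no stated pairing, and the deviations of same-numbered libraries correlated at 0.0639, 0.0513 and 0.0673 in HCT116 and at 0.0923, 0.118 and 0.00752 in LoVo. In HCT116 every library correlated best with its own number, and in LoVo not every one did. Directions that turned all belong to genes that were not called. In HCT116, MT-CO3 and MT-ND3 turned with upper quartile factors (-0.01 and -0.005), on both FPKM scales (-0.02 and -0.02) and in the fit of all 12 libraries (-0.01 and -0.00053), and in LoVo MT-CYB (-0.0016), TFAM (-0.01) and TWNK (-0.02) turned on both FPKM scales. With libraries left out, the HCT116 log2 fold changes ran from -0.02 to 0.06 for MT-ND1, -0.05 to 0.02 for MT-CO2, -0.43 to 0.23 for MT-ATP8, -0.04 to 0.04 for MT-CO3, -0.09 to 0.10 for MT-ND3, -0.04 to 0.23 for MT-ND4L, -0.06 to 0.02 for MT-ND6 and -0.08 to 0.01 for MT-TP. Those in LoVo ran from -0.01 to 0.07 for MT-CYB, -0.02 to 0.12 for TFAM and -0.02 to 0.03 for TWNK, and the difference for MT-ND4L from -0.21 to 0.06. Depth limits MT-ATP8, whose libraries held as few as 45 counts, and 21 tRNAs had too few counts to be tested. The median of all genes moved to -0.105 between control lines on log2(FPKM + 0.1), against -0.009 on the counts.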

Other observations

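The mix of the 13 mRNAs differed between the lines. MT-CO1 made up 25.6 ± 0.439% of mRNA counts in the HCT116 control and 34.7 ± 0.831% in the LoVo control, whereas MT-ND5 made up 11.1 ± 0.167% in the HCT116 control and 8.24 ± 0.116% in the LoVo control (SD, n = 3 each, no overlap, not tested). MT-ND6 made up 1.04 ± 0.0392% in the HCT116 control and 0.681 ± 0.0279% in the LoVo control.

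Within a line, the shares of MT-CO1, MT-ND5 and MT-ND6 moved less than between the control lines. That of MT-CYB did not, at -0.778 percentage points in LoVo KD and -0.766 in the HCT116 control against the LoVo control. MT-ND2 differed by 0.336 points in HCT116 OE, and by -0.0123 points between the control lines, where it overlapped. MT-CYB made up 6.57 ± 0.343% of mRNA counts in LoVo KD and 7.35 ± 0.209% in the LoVo control, and MT-ND5 7.73 ± 0.0237% in LoVo KD and 8.24 ± 0.116% in the LoVo control. In HCT116, MT-CO1 made up 24.6 ± 0.164% in OE and 25.6 ± 0.439% in the control, MT-CO3 13.4 ± 0.182% in OE and 12.7 ± 0.216% in the control, and MT-ND2 4.51 ± 0.108% in OE and 4.17 ± 0.166% in the control. MT-ND1 took a larger share in OE, 4.30 ± 0.191% against 4.03 ± 0.0557% in the HCT116 control, and a smaller one in LoVo KD, 4.22 ± 0.0532% against 4.37 ± 0.0738% in the LoVo control. None of these groups overlapped within its line. Of the 26 shares compared within lines, 8 reached the smallest exact two-sided permutation p of 0.1 that 3 against 3 libraries allow, and their adjusted p over the 26 was 0.325.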
